A study of Homo sapiens with 2 samples.

Results

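HES1, the inhibitor of differentiation (ID) genes ID1, ID2 and ID3, the E protein gene TCF3, the receptors NOTCH1 and NOTCH2, and the core-binding factor genes RUNX1, RUNX3 and CBFB were followed on a pair of Illumina HT12 whole-genome arrays. The 10 genes were chosen by symbol with their signals on both arrays already known, so every value here is a description of those signals and none is a test. All 10 genes had at least 1 probe, among 20046 named genes, and the platform annotation gave them 18 probes. The RNA came from cells labelled Jurkat, an established human line first grown from a T cell leukaemia. In the control group the cells were kept for 24 hours with phosphate-buffered saline, and in the treated group for 24 hours with the small molecule Me6TREN, a branched tertiary amine used as a ligand for metals. Both groups shared RPMI medium with fetal bovine serum, and the dose is not given in the sources used here. Each group held 1 array, so the treatment effect has neither an error nor a test, and every difference is one between 2 arrays.

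The genes belong to connected switches of lymphocyte development. Notch receptors are cut after they bind ligand, and the freed intracellular part joins the DNA-binding protein RBPJ and Mastermind coactivators to switch on targets such as HES1, a repressor of the basic helix-loop-helix class. E proteins such as TCF3 activate lymphoid genes as dimers, and ID proteins, which lack a DNA-binding region, capture them in dimers that cannot bind DNA. RUNX proteins bind DNA as partners of CBFB, which binds no DNA itself and stabilises them, and they control T and B cell genes. In T cell leukaemia NOTCH1 is often mutated to an active form, and HES1 is one of its best known targets there.

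HES1 and ID2 were higher on the Me6TREN array and RUNX3 and RUNX1 were lower. ID3, TCF3 and CBFB, each detected on both arrays, stayed within 1.5-fold. NOTCH1 lay at the limit of detection, and ID1 and NOTCH2 were not detected on either array. HES1 was 6.71-fold higher and ID2 4.33-fold higher, RUNX3 was 3.59-fold lower, and RUNX1 was at least 3.42-fold lower, a bound that shrank without background correction.

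Lineage markers were set beside the label. Of 12 T lineage markers with a probe, 1 was detected on both arrays, 3 on the control array alone and 2 on the Me6TREN array alone, and the summed signal of the brightest probe of each marker was 4731.4 and 3974.9. CD3E, a signalling chain that defines T cells, read 257.5 and 261.4, neither above background. Among 8 B lineage markers on the platform, 7 were detected on both arrays, with a summed signal of 88789.1 in the control and 84756.1 with Me6TREN. CD79A, a signalling chain that defines B cells, had signals of 32313.3 and 33454.8. Of other markers, 1 of 8 myeloid, 1 of 4 erythroid and 0 of 6 fibroblast genes were detected on both arrays. Of the myeloid genes, CD14 and LYZ were detected with Me6TREN alone, near the limit, and S100A8 in the control alone. CD14, given as a bound (312.5 and 370.0), and CD68 (1280.6 and 1323.8) were at least 1.5-fold higher after normalization. The other detected CD68 probe gave a log2 ratio of 0.43. These myeloid genes and the next genes were named after their values were seen. CD79B read 45068.6 and 42799.6, while PAX5, on the same B lineage list, was not detected on either array. Of the T lineage markers, CD5, CD7, LCK and BCL11B were not detected on either array. CD247 read 1218.7 and 726.4 and was detected on both arrays. CD3D (587.4 in the control) was detected there alone and was at least 2.26-fold lower. ZAP70 (374.3 with Me6TREN) was detected there alone and was at least 1.68-fold higher. By detection on both arrays, the marker lists go against the label, since this held for 1 of 12 T lineage genes but 7 of 8 B lineage genes. The share over all named genes was 39.1%. On at least 1 array, 6 of 12 T lineage and 7 of 8 B lineage genes were detected, beside 46.9% of all named genes. By that measure the T lineage list was close to the share of all genes. What is known of Notch in T cell leukaemia may not apply to these cells. The part that the identity of the cells plays in the values was not tested, and in bulk RNA fewer cells of a type and less RNA per cell cannot be told apart.

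The promoters of HES1, ID2 and RUNX3 are shown because these genes had the largest ratios among the members detected on both arrays. Matches to the motifs searched were found in 7 of the 9 members with a window, so a match does not set these genes apart. The sequences are RefSeq's, from assembly GRCh38.p14, run 5′ to 3′ on the gene's strand, and reach from 250 bases before to 50 bases after the annotated start. A window was found for 9 of the 10 genes, and RUNX3, which has a distal and a proximal promoter, had 2 windows. Capitals mark matches, on both strands, to TGGGAA (the core of the RBPJ site), CACNAG (the N box bound by HES proteins), CANNTG (the E box bound by E proteins) and TGNGGT (the RUNX site), and matches that adjoin or overlap run together.
HES1, chr3:194135898-194136197, plus strand: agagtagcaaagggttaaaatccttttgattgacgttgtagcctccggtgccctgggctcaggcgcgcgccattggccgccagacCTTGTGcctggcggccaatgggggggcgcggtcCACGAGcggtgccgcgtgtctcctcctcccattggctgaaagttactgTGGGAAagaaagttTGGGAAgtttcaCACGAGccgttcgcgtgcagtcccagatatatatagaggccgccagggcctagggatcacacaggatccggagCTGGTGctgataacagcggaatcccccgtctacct
ID2, chr2:8681806-8682105, plus strand: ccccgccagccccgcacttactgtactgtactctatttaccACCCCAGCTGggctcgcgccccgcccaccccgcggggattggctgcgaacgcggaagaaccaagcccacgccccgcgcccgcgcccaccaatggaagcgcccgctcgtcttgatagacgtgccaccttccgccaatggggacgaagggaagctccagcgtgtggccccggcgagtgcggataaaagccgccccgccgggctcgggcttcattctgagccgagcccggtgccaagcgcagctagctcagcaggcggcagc
RUNX3 distal, chr1:24964961-24965260, minus strand: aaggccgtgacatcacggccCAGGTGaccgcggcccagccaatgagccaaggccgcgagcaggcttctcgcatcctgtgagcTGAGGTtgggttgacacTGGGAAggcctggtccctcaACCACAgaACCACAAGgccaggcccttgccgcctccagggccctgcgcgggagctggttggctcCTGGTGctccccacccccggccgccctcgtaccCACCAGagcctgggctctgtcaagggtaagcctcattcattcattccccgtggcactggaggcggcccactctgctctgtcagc
RUNX3 proximal, chr1:24930227-24930526, minus strand: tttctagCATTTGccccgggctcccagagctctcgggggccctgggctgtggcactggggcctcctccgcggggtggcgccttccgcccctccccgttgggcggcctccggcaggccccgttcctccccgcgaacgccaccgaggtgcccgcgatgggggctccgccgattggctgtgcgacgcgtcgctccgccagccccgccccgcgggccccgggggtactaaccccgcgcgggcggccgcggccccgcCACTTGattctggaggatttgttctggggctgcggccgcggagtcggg

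The HES1 window held 2 matches to the RBPJ core on the same strand, which began at positions −84 and −70 from the annotated start, and 4 matches to the N box, at −165, −132, −58 and 16. It held no match to the E box or to the RUNX site. RBPJ core matches occurred in 24.0% of 35116 RefSeq promoter windows of the same length, N boxes in 38.0%, E boxes in 68.7% and RUNX sites in 43.2%. Among the 9 members with a window, HES1 and RUNX3 held an RBPJ core match. In the distal window of RUNX3, 3 RUNX sites began at positions −168, −131 and −123, and the last of them overlapped an N box, whereas the proximal window held none. The ID2 window held 1 E box and 1 RUNX site, which overlapped each other, and no match to the RBPJ core or N box. A match describes these letters only, since no binding was measured.

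Of the 18 probes, 7 were detected on both arrays, 2 on the control array alone and 9 on neither, where detected means a detection p-value under 0.01, the rank of the signal among the array's negative controls. The lowest detected signal was 333.4 for the control and 350.5 for Me6TREN. The 9 undetected probes lay between 201.6 and 304.3, so they carry no ratio. Each probe value is a mean over beads, and the members' probes had between 12 and 42 beads per array.

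**Figure D1:**
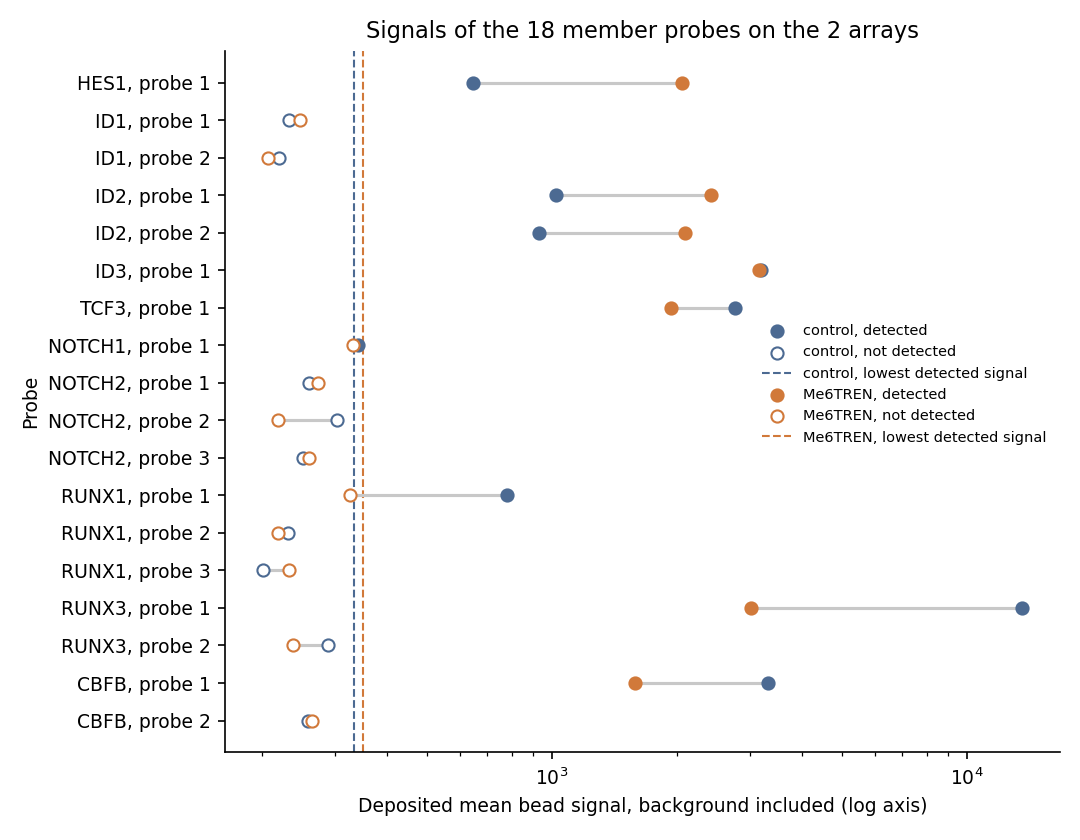
Deposited mean bead signal of the 18 member probes (log axis, background included) on the control array (blue) and the Me6TREN array (orange), with open circles for signals that were not detected and dashed lines at the lowest detected signals of 333.4 and 350.5. HES1 and both ID2 probes lie to the right on the Me6TREN array, RUNX3, RUNX1 and CBFB lie to the left, and the ID3 signals nearly coincide.

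HES1, the repressor that Notch switches on, had 1 probe, which read 647.1 in the control and 2054.2 with Me6TREN as deposited. It was well above the detection limit on both, from 16 and 29 beads. After background correction and quantile normalization its log2 signal was 8.41 in the control and 11.16 with Me6TREN, a log2 ratio of 2.75. Among all genes detected on at least 1 array, HES1 stood at percentile 30.7 of the log2 signal in the control and at percentile 72.6 with Me6TREN. Of all genes with a ratio, 0.54% had a ratio as high or higher. Among genes of similar mean signal, the robust standard deviation of the log2 ratio was 0.73, and 17.5% were at least 1.5-fold higher.

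The genes nearest to HES1 in log2 signal on both arrays were SNORA8, H1-2 and JSRP1. SNORA8, a small nucleolar RNA, had log2 signals of 8.24 and 10.98, at a distance of 0.25, and H1-2, a linker histone gene, had 8.70 and 11.32, at a distance of 0.33. JSRP1, known for a role in the calcium release machinery of muscle, had 8.60 and 10.83, at a distance of 0.37. With only 2 arrays this likeness says no more than that the signals were close. ID1 could be matched to no gene because it was not detected.

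The ID genes did not move alike. ID2, which restrains E proteins and is required for innate lymphoid cells, had 2 probes that were both detected on both arrays. The brighter read 1021.7 in the control and 2423.3 with Me6TREN, and the other 929.5 and 2091.3. Both probes were higher with Me6TREN, with log2 ratios of 2.11 and 2.04 that differed by 0.07. Over 1562 genes with exactly 2 probes detected on both arrays, the median difference between the log2 ratios of the probes was 0.30 and the 90th percentile 1.01. Of all genes with a ratio, 1.16% had a ratio as high as that of ID2.

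ID3, a target of antigen receptor signalling that also restrains E proteins, read 3185.2 in the control and 3155.2 with Me6TREN. The deposited signals were nearly equal, and the log2 ratio of 0.54 arose in the normalization. The 75th percentile of all signals was 466.7 in the control and 397.5 with Me6TREN, while the median was 272.1 and 283.1. ID3 lay just inside the 1.5-fold limit, at 1.46-fold, and the difference in log2 ratio between ID2 and ID3 was 1.57. The log2 ratio of ID3 was 0.02 with median centring over all probes and 0.12 with the series matrix values. With median centring over detected probes it was 0.70. ID1, an inhibitor of the same family and a classical target of bone morphogenetic proteins, read 232.1 and 247.4 by 1 probe and 219.8 and 207.4 by the other. None of these signals stood above background, so no statement on the direction of ID1 can be made. ID4, named after its values were seen, was not detected on either array.

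TCF3, the E protein that the ID proteins capture, read 2762.2 in the control and 1940.5 with Me6TREN, from 20 and 18 beads. The deposited signal was lower with Me6TREN, but the normalized log2 signals were 11.03 and 11.07, a log2 ratio of 0.04. Its direction turned with the scaling, from 0.14 with median centring over detected probes to −0.54 with median centring over all probes and −0.43 with the series matrix values. Within the arrays, the log2 ratio of ID2 exceeded that of TCF3 by 2.08, and the log2 ratio of ID3 exceeded that of TCF3 by 0.51.

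The receptors gave little signal. NOTCH1 read 340.6 in the control, where its detection p-value was 0.00519, and 332.0 with Me6TREN, where it was 0.0221. The control signal was therefore just above the detection limit and the Me6TREN signal just below its own, and no fold is given. NOTCH2 had 3 probes, which read 260.5, 304.3 and 252.0 in the control and 274.0, 219.3 and 260.2 with Me6TREN. None was detected, and partial copies of NOTCH2 that share its first exons make the assignment of its probes uncertain.

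RUNX3, which silences CD4 in cytotoxic T cells, had 2 probes, of which 1 was detected. That probe read 13575 in the control and 3027.6 with Me6TREN, from 29 and 32 beads. The log2 signals were 13.59 and 11.75, a log2 ratio of −1.85, and 1.76% of all genes with a ratio were as low or lower. Among genes of similar mean signal 17.9% were at least 1.5-fold lower, and the robust standard deviation was 0.53. The other RUNX3 probe, which the annotation ties to a different transcript, read 288.8 and 238.4 and was not detected. Whether either probe lies in an exon of 1 transcript only is not given in the sources used here, so the promoters shown cannot be assigned to the probes.

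RUNX1, which is required for blood stem cell formation, had 3 probes, of which 1 was detected on the control array alone. That probe read 779.6 in the control and 326.4 with Me6TREN, where its detection p-value was 0.0299. Against the lowest detected signal of the Me6TREN array, RUNX1 was at least 3.42-fold lower, a bound of −1.78 on the log2 scale, while its measured log2 signals were 8.79 and 6.61. The bound was −0.90 on the log2 scale without background correction and −1.18 with normexp and an offset of 50. The other probes read 231.8 and 201.6 in the control and 219.2 and 233.1 with Me6TREN, all at background, although the annotation ties 1 of them to the same transcript as the detected probe. The lower value of RUNX1 therefore rests on 1 of 3 probes.

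CBFB, the common partner of the RUNX proteins, read 3313.3 in the control, from 12 beads, and 1590.6 with Me6TREN, from 25 beads. The deposited signal was lower with Me6TREN, and the log2 ratio was −0.57, or 1.48-fold, just inside the 1.5-fold limit. The difference in log2 ratio between RUNX3 and CBFB was −1.28. The other CBFB probe read 258.6 and 264.0 and was not detected. With median centring over all probes and with the series matrix values CBFB passed the limit, at −1.15 and −1.06.

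Among the 8 members detected on at least 1 array, HES1 and ID2 passed 1.5-fold upward (2 genes) and RUNX1 and RUNX3 downward (2 genes), and the same counts held at 2-fold. Of all 9410 genes detected on at least 1 array, 16.5% passed 1.5-fold upward and 21.9% downward, and at 2-fold the shares were 6.74% and 9.94%. The members were picked on this contrast, so nothing is read from their counts. The median log2 ratio was 0.04 over the 7 members with a ratio or bound and −0.07 over all such genes. How the arrays are scaled sets that background: 43.0% of genes past 1.5-fold were higher with quantile normalization, 57.8% with median centring over detected probes, 13.8% with the series matrix values and 10.4% with median centring over all probes.

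**Figure D2:**
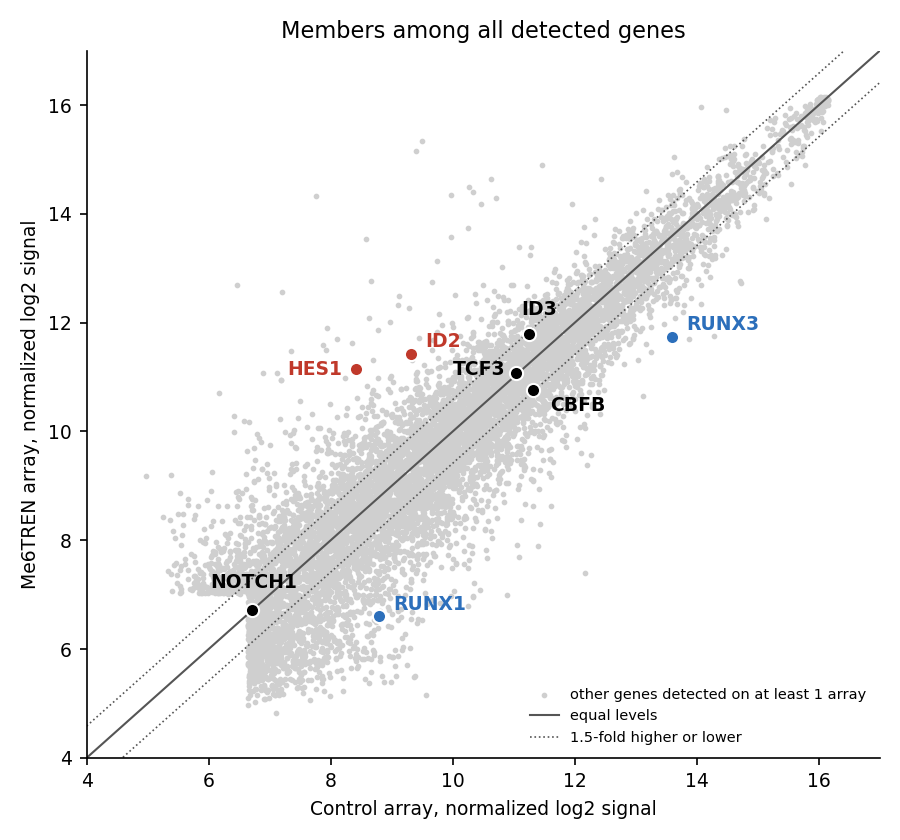
Normalized log2 signal on the control array (x axis) and the Me6TREN array (y axis) for all genes detected on at least 1 array (grey), with the 8 detected members named, in red where at least 2-fold higher, in blue where at least 2-fold lower and in black otherwise. RUNX1 and NOTCH1 are drawn at their measured signals although the Me6TREN array did not detect them. HES1 and ID2 lie above the dotted 1.5-fold lines and RUNX3 and RUNX1 below them.

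The median log2 ratio of all genes was 0.11 with median centring over detected probes, −0.45 with the series matrix values and −0.52 with median centring over all probes. Set against that median, the ratio of HES1 was 2.82 and lay between 2.18 and 2.82 over the main and all 10 other settings, and that of ID2 was 2.19, between 1.83 and 2.19. RUNX3 was at −1.77, between −1.82 and −1.65, and RUNX1 at −1.70, between −2.17 and −0.85, the value nearest to 0 coming without background correction. ID3 was at 0.62, between 0.54 and 0.62, CBFB at −0.50, between −0.63 and −0.46, and TCF3 at 0.11, between −0.02 and 0.11. The order HES1, ID2, ID3, TCF3, CBFB therefore held against the median in every setting, whereas RUNX1 and RUNX3 changed places.

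**Figure D3:**
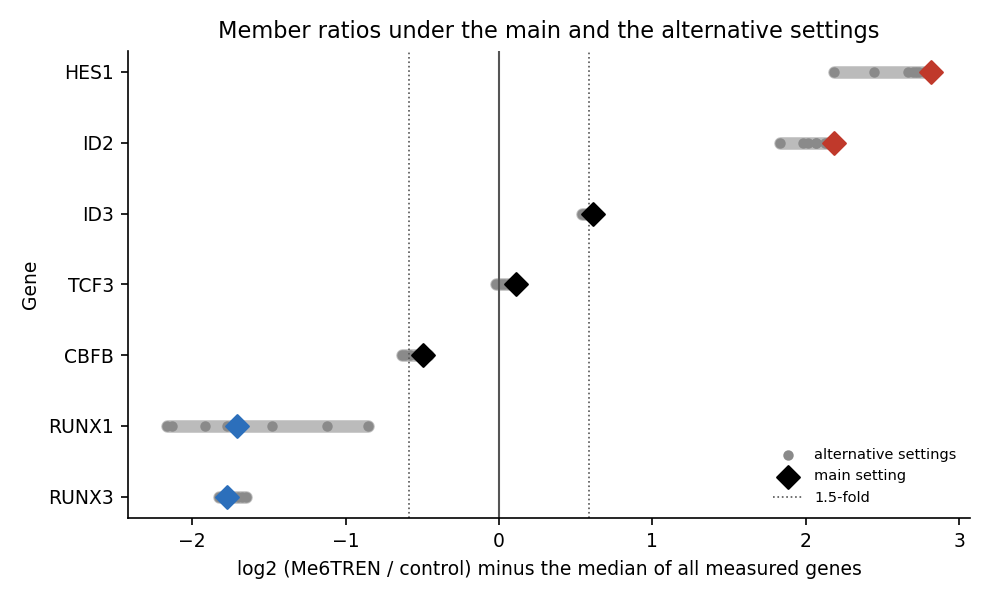
Log2 ratio of Me6TREN over control minus the median of all measured genes for the 7 members with a ratio or bound, with a diamond for the main setting and grey dots for the other settings (10 for each gene, 9 for RUNX1). Diamonds are red or blue where the ratio itself was at least 1.5-fold higher or lower. ID3, at 0.62, crosses the dotted 1.5-fold line only because the median is subtracted. HES1 and ID2 stay right of that line and RUNX3 and RUNX1 left of it.

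Of 9 Notch ligands and receptors, NOTCH1 and the ligand gene JAG2, named after its values were seen, were detected, both on the control array alone and both near the limit, and the other 7 were not detected on either array. Of 18 detected genes of receptor processing and turnover, 1 was at least 1.5-fold higher and 5 lower, beside 16.5% and 21.9% of all detected genes, with a median log2 ratio of −0.29. With median centring over all probes and with the series matrix values 0 were higher and 11 lower, with medians of −0.73 and −0.69. POGLUT1, which adds glucose to the receptor, was 3.27-fold lower, from signals of 2904.0 and 748.5. MFNG, a Fringe enzyme that extends fucose on Notch, was 2.71-fold lower, from 16371.6 and 5063.9, and the ubiquitin ligase gene ITCH was 2.24-fold lower. DTX2, a Deltex ligase, was 1.80-fold lower by 1 probe, with a log2 ratio of −0.14 by the other.

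Of 12 detected genes of the nuclear part of the pathway, 4 were at least 1.5-fold lower and 1 higher, beside 21.9% and 16.5% of all detected genes, and the median log2 ratio was −0.42. The number of lower genes was 2 without background correction and 7 with median centring over all probes or the series matrix values. RBPJ, the DNA-binding partner of the Notch intracellular part, read 1013.1 in the control and 515.0 with Me6TREN and was 1.74-fold lower. KAT2B, an acetyltransferase that the complex recruits, was 1.90-fold lower, and CREBBP, another, was 2.86-fold lower by its brightest probe but its other detected probe gave a log2 ratio of 0.60. CTBP2, a corepressor, went the other way, from 457.2 to 737.6, and was 3.45-fold higher. On the array where HES1 was higher, RBPJ and KAT2B were lower and CTBP2 was higher, and a link between these values was not tested.

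Of 15 HES, HEY and Groucho genes, 7 were detected on at least 1 array, where 46.9% of all named genes were. Of these 7, 3 were at least 1.5-fold higher and 1 lower, beside the shares of 16.5% and 21.9% over all detected genes, and the count and the median include HES1, which was picked for its values. The Notch target HEY1 read 526.1 and 524.9, nearly equal as deposited, and was 1.53-fold higher after normalization, just past the 1.5-fold limit. Of the Groucho corepressors, which HES1 recruits, TLE3 was not detected in the control (319.9) and read 600.3 with Me6TREN, at least 4.81-fold higher, while TLE4 read 1703.8 and 499.5 and was 3.51-fold lower. HES4, named after its values were seen, had a log2 ratio of 0.10. The median log2 ratio of the list was 0.35, which turned to −0.12 with median centring over all probes and −0.01 with the series matrix values. Under each of these 2 settings the counts were 2 higher and 2 lower. They were 2 and 1 without background correction, with normexp, with a neqc offset of 50 and over genes detected on both arrays.

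Of 12 detected E protein and ID genes and partners, all detected on both arrays, ID2 and TCF12 were at least 1.5-fold higher and 0 were lower, beside 16.5% and 21.9% of all detected genes. The lower count was 3 with median centring over all probes, 2 with no detection filter and 1 each with the series matrix values and the mean of detected probes. The higher count was 1 each with median centring over all probes and the series matrix values, and 3 with median centring over detected probes. The list includes ID2, ID3 and TCF3, picked with their values known, and had a median log2 ratio of 0.04, which turned to −0.42 with median centring over all probes and −0.31 with the series matrix values. TCF12, an E protein related to TCF3, read 960.3 and 1022.4, nearly equal as deposited, and was 1.75-fold higher after normalization. Its other detected probe gave a log2 ratio of 0.64. TCF4, the remaining E protein, named after its values were seen, had a log2 ratio of −0.07. CXCR5, a homing receptor of B cells, had a log2 ratio of 0.44 by the only 1 of its 3 detected probes that was detected on both arrays. IGLL1, a surrogate light chain gene of the precursor B cell stage, read 12264.9 in the control and 9415.0 with Me6TREN. These are the signals of its brightest probe, the only 1 of 2 detected probes that was detected on both arrays. VPREB3 read 10878.2 and 7334.4. On the same list VPREB1, RAG1 and RAG2 were not detected on either array. These genes, from IGLL1 on, were also named after their values were seen.

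ID genes are classical targets of bone morphogenetic protein signals. Of 32 genes of that pathway with a probe, 13 were detected, beside 46.9% of all named genes. Of the 13, 3 were at least 1.5-fold higher and 2 lower, beside 16.5% and 21.9% of all detected genes. The median log2 ratio was −0.12, or 0.35 with the mean of detected probes and −0.49 over genes detected on both arrays. It was −0.31 with median centring over all probes and −0.20 with the series matrix values, each with 2 genes higher and 5 lower. With no detection filter 4 were higher and 4 lower, and with the mean of detected probes 4 and 1. BAMBI, a decoy receptor of the pathway, read 477.6 and 1223.7 and was 6.16-fold higher, and the inhibitor SMAD7 went from an undetected 307.6 to 413.3, at least 2.21-fold higher. The receptor genes TGFBR2 and ACVR1B were 2.25-fold and 1.61-fold lower. The other TGFBR2 probe had a log2 ratio of −1.23. ACVR1B had 2 detected probes, of which only the brightest was detected on both arrays, so its lower value rests on 1 probe. With the mean of detected probes the list held 1 lower gene in place of 2.

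Of 15 detected genes on the list of RUNX and core-binding factor partners, 8 were at least 1.5-fold lower and 0 were higher. The shares over all detected genes were 21.9% and 16.5%. The median log2 ratio of the list was −0.60, or −0.58 over the 13 detected on both arrays. The count includes RUNX1 and RUNX3, which were picked for their values, and CBFB is also on the list. The lower count was 14 with median centring over all probes (median −1.15), 13 with the series matrix values (median −1.06), 5 without background correction and 6 with the mean of detected probes, where 1 gene was higher. SUV39H1, a histone methyltransferase that binds RUNX1, read 3719.4 and 1219.2 and was 2.27-fold lower. KMT2A, a histone methyltransferase that interacts with RUNX1 and CBFB, read 586.4 in the control and an undetected 341.4 with Me6TREN, at least 2.26-fold lower. ETS1, which binds DNA together with RUNX1 and was named after its values were seen, read 8227.7 and 4162.5 and was 1.53-fold lower, with a log2 ratio of −0.52 by its other probe. RUNX2, the remaining RUNX gene, also named afterwards, was not detected on either array.

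Over the 7 pathway lists together, without the members, 71 of 130 genes with a probe were detected, 8 (11.3%) were at least 1.5-fold higher and 18 (25.4%) lower, and the median log2 ratio was −0.20. Both shares stand beside the 16.5% and 21.9% of all detected genes. Probes of 1 gene did not always move alike: POFUT1, which adds fucose to Notch and was named after its values were seen, had log2 ratios of 0.26 and −1.91, and FBXW7, a ligase that removes active Notch and was named likewise, had 0.63 and −0.79.

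**Figure D4:**
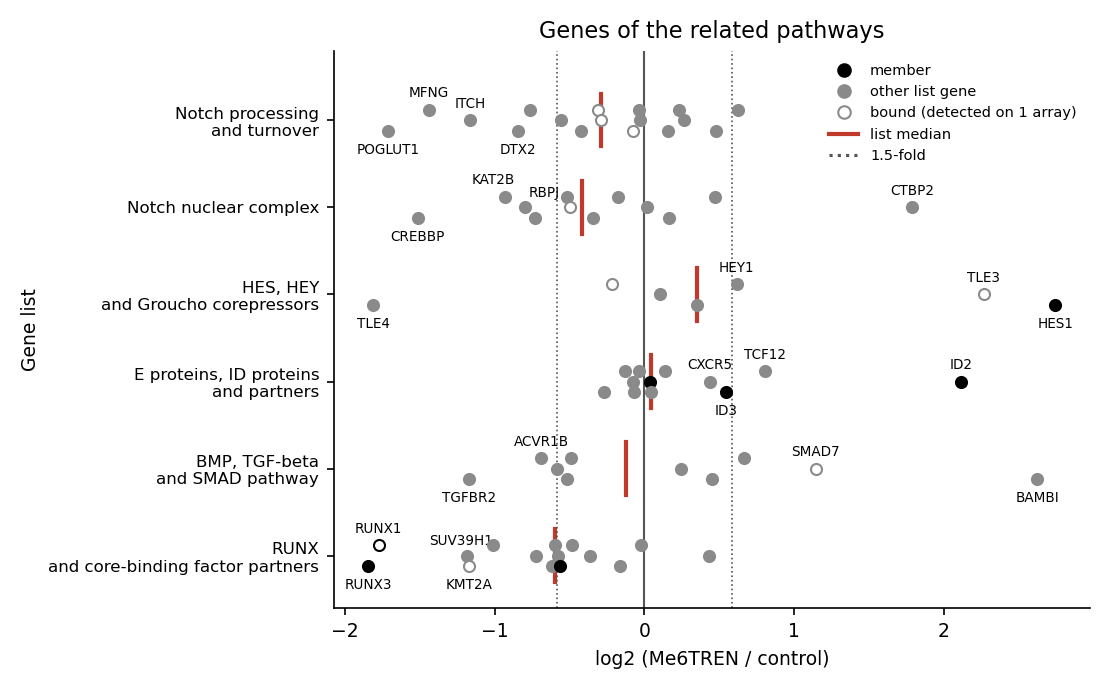
Log2 ratio of Me6TREN over control for the genes of 6 lists that have a ratio or bound, with members in black, other genes in grey, open circles for bounds, a red bar at the list median and dotted lines at 1.5-fold. Notch ligands and receptors are left out of the plot because neither detected gene has a ratio. HES1, BAMBI, TLE3 and ID2 lie farthest to the right, and RUNX3, TLE4 and RUNX1 farthest to the left.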

How the data were processed

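Total RNA of cells labelled Jurkat was extracted with Trizol, treated with DNase and labelled as biotinylated cRNA, per the labels' protocols, and hybridised to 1 array per group. The authors deposited mean bead signals, a linear intensity with background included and not normalized between arrays, with a detection p-value and the bead number of each probe, per the file headers. Scanner software: not given in the sources used here. The authors also deposited a series matrix of processed intensities; each column was the array's signal times 0.951 (control) or 1.05 (Me6TREN) plus a constant of −228.0 or −269.5, to within 0.0131, with medians of 30.9 and 28.8. Its scale is linear, its columns rise with the signal and it is not centred on genes.

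The neqc function of limma 3.58.1 (R 4.3.3) was applied to the deposited signals (background from negative controls inferred from detection p-values, offset 16, quantile normalization, log2). A change in total RNA per cell cannot be seen after this step. Probes were named through GEO's platform annotation, checked against RefSeq by Entrez ID. Of 47322 probes, 32.5% were detected in the control and 28.9% with Me6TREN; the number of arrays limits the precision. A gene is given by its brightest probe detected on at least 1 array. Where only 1 array detected it, its ratio is a bound, set by the higher of the other array's lowest detected log2 signal and the probe's own. Similar mean signal means the same of 10 equal bins of genes detected on both arrays. Steps were tested on simulated data.

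The members, 7 pathway lists and 5 marker lists were chosen with earlier results of these data known. Named genes are all members, up to 4 genes per list with the largest log2 ratios, the 3 genes nearest HES1, CD3E and CD79A; others are marked. Settings compared were no background correction, normexp with an offset of 50, median centring over all probes, the series matrix values floored at 99.9, detection at 0.05, a neqc offset of 50, the mean of detected probes, genes detected on both arrays and no detection filter. Median centring over probes detected on both arrays was added after the data were seen, and a 2-fold threshold was also tried.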

Additional observations from a re-analysis of the deposited data

How the results depend on the processing

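The log2 ratios of HES1 (2.13 to 2.82) and ID2 (1.49 to 2.17) stayed positive and past 1.5-fold under all 10 other settings, and those of RUNX3 (−2.22 to −1.54) and RUNX1 (−2.36 to −0.90, 9 settings) stayed negative and past it. RUNX1 has no ratio over genes detected on both arrays, where 1 member in place of 2 was lower. ID3 ranged from 0.02 to 0.70 and passed 1.5-fold under 1 setting, CBFB from −1.15 to −0.48 and passed it under 2, and TCF3 from −0.54 to 0.14. Of the other pathway genes, 8 were higher in the main setting, against 5 without background correction and 4 each with median centring over all probes, with the series matrix values and at 2-fold. Against 18 lower genes, there were 39 with median centring over all probes, 36 with the series matrix values, 29 unfiltered on detection and 9 at 2-fold. These shifts move with the median ratio of all genes under centring and the series matrix, and with more genes counted without the filter; other causes were not tested. No paired analysis was possible because each group held 1 array. Signals below about the lowest detected values of 333.4 and 350.5 carry no direction, which covers ID1, NOTCH2 and, in effect, NOTCH1.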
